A study of Saccharomyces cerevisiae with 6 samples.

Results

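The thioredoxin and glutathione systems of budding yeast were followed through 10 genes, including YAP1, which encodes a transcription factor that controls several of the others. The genes were taken by name and comprise the thioredoxin genes TRX1, TRX2 and TRX3, the thioredoxin reductase gene TRR1, the glutaredoxin genes GRX1 and GRX2, the glutathione reductase gene GLR1, the glutathione synthesis genes GSH1 and GSH2, and YAP1 itself. Each had 1 S. cerevisiae probe set, and they are 10 of the 5449 S. cerevisiae genes on the array. RNA came from cells that overexpressed Med3-GST (labelled GST-med3) or GST alone, with 3 biological replicates of each (A, B and C) on 1 Affymetrix Yeast Genome 2.0 Array per replicate. Both groups were grown on galactose in synthetic medium without uracil for 48 h. In both, the overexpressed protein was encoded on a plasmid under the galactose-inducible GAL1/10 promoter, so that the same promoter drove the fusion and the control. The levels were not matched, as in the paper's qPCR the fusion transcript settled far below that of GST. The paper also reports that Med2 and Med3 were lost from Mediator when Med3-GST was overexpressed. In the study's strain list the hosts of both plasmids derive from BY4741, a MATa laboratory strain, but the labels do not say which host was used for the arrays. No oxidant is mentioned for these cultures. Med3 is a subunit of the tail of Mediator, the complex that links activators to RNA polymerase II, and the comparison asks how its overexpression changed transcript levels.

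Both systems keep protein thiols reduced. A thioredoxin or a glutaredoxin reduces a disulfide in its target and is oxidized in turn. Thioredoxin is then reduced by thioredoxin reductase at the expense of NADPH, while glutaredoxin is reduced by the tripeptide glutathione, which glutathione reductase recycles, also with NADPH. Glutathione is made from glutamate, cysteine and glycine in consecutive steps by the products of GSH1 and GSH2. Yap1 is a basic leucine zipper factor of the AP-1 type that accumulates in the nucleus when its cysteines are oxidized. It activates genes of both systems, TRX2, TRR1, GSH1 and GLR1 among them, and thioredoxin helps to switch it off again.

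All values are log2 signals of probe sets, given in the order of replicates A, B and C, and differences are Med3-GST minus GST. PGD1, the gene for Med3, had log2 signals of 11.85, 11.73 and 11.84 on the Med3-GST arrays, against 8.24, 8.01 and 8.07 on the GST arrays, and was thus higher in the group labelled as overexpressing it. The a-cell genes MFA1, MFA2, STE2 and BAR1 had log2 signals of 10.01 or more on all 6 arrays, and both alpha-factor genes lay below 7.50. Below this level lie 95% of the probe sets for S. pombe, a yeast absent from these cultures. The alpha-cell receptor gene STE3 lay above it, with 7.96, 7.94 and 7.96 on the Med3-GST arrays, against 8.40, 8.39 and 8.43 on the GST arrays. The 10 genes themselves ranged from 10.33 to 13.41 and were thus all above that level. The arrays differed in overall brightness. The median log2 signal of all S. cerevisiae probe sets was 9.96, 9.87 and 9.99 on the Med3-GST arrays, against 10.08, 9.99 and 10.04 on the GST arrays. The median difference over the 5498 S. cerevisiae probe sets was therefore -0.085 as deposited, and 0.01 once the median of every array had been set to a common value, called centring below. This offset is of the size of several differences below. Each difference of the 10 genes is therefore given on both scalings, while single genes of the surrounding pathways are mostly given as deposited. The S. pombe probe sets did not share this offset, with medians of 6.02 to 6.06 on the Med3-GST arrays and 6.03 to 6.06 on the GST arrays. As that yeast is absent, they read mostly background and give no measure of the amount of labelled S. cerevisiae RNA. The cause of the offset was not tested.

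As deposited, each of the genes fell or did not pass the test in cells with Med3-GST, whereas TRR1 and GSH1 were higher after centring. None was changed 2-fold, as 1.84% of all probe sets were. As deposited, 7 of the 10 were lower (TRX2, TRX3, GRX1, GRX2, GLR1, GSH2 and YAP1), none was higher, and TRX1, TRR1 and GSH1 did not pass the test (limma, two-sided, Benjamini-Hochberg adjusted over all 5498 probe sets, threshold 0.05). As deposited, the fit gave every probe set the same standard error of 0.05, on which the size of its smallest p-values rests. Of all probe sets tested, 47.8% were lower and 27.1% higher by the same rule, so that calls alone set few genes apart in these data. After centring, 6 were lower, TRR1 and GSH1 were higher, and TRX1 and TRX2 did not pass, against 41.7% lower and 43.6% higher among all probe sets. The median difference of the 10 genes was -0.20 as deposited and -0.11 after centring, beside the medians of -0.085 and 0.01 over all probe sets. The genes that were lower on both scalings were TRX3, YAP1, GRX1, GLR1, GSH2 and GRX2, in order of size.

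**Figure D1:**
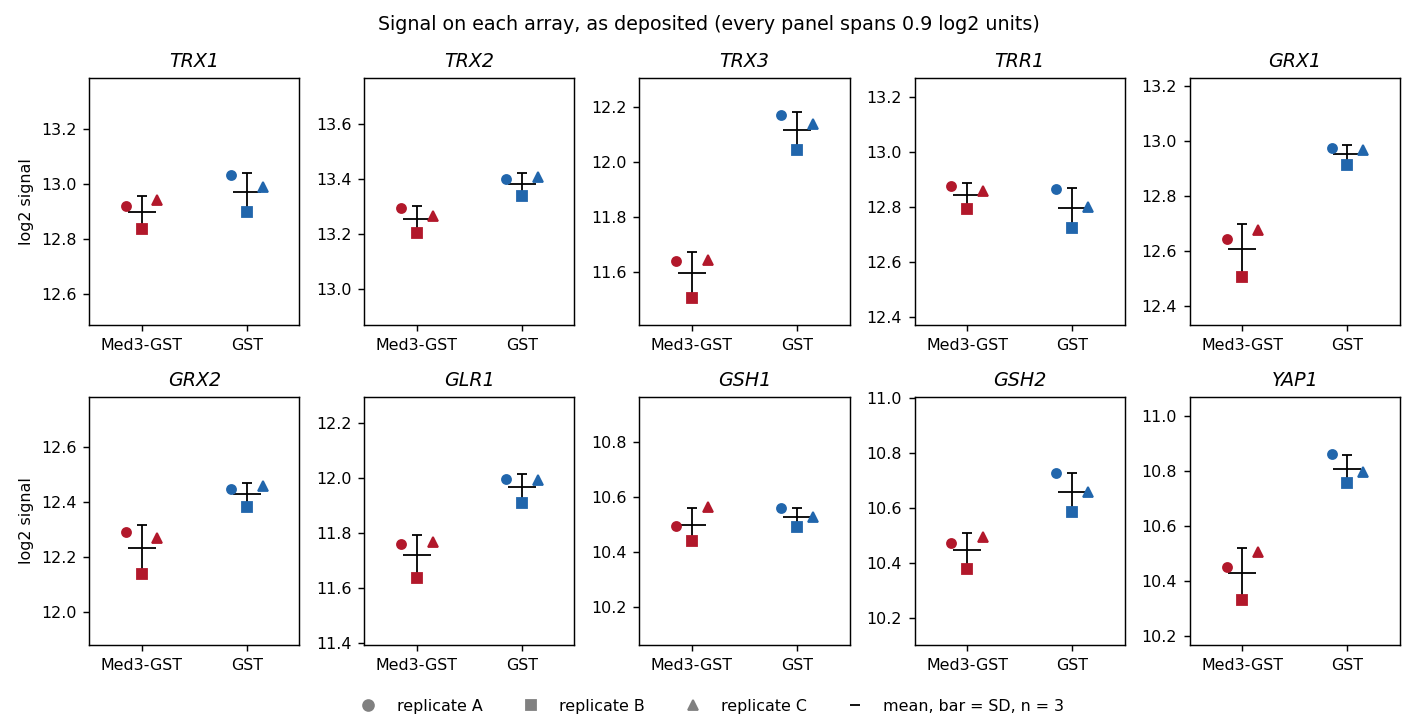
Log2 signal as deposited (vertical axis, 0.9 log2 units in every panel) of each gene on the 3 Med3-GST arrays (left, red) and the 3 GST arrays (right, blue), with marker shape for the replicate and black bars for mean ± SD. TRX3, GRX1 and YAP1 show the widest gaps between the groups, TRX1, TRR1 and GSH1 overlap, and the square of replicate B is the lowest of its group in all 10 panels.

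TRX3 showed the largest change of the 10 genes. It encodes the thioredoxin of mitochondria, whereas TRX1 and TRX2 encode the thioredoxins of the cytosol. TRX3 had log2 signals of 11.64, 11.51 and 11.64 on the Med3-GST arrays, against 12.17, 12.04 and 12.14 on the GST arrays. Every Med3-GST array was lower than every GST array, with 0.40 between the nearest arrays. The difference was -0.52 (SE 0.05, adjusted p = 1.74e-24, limma), a signal 30.3% lower, and after centring it was -0.43 (SE 0.02, adjusted p = 1.74e-09, limma), or 25.6% lower. TRX3 was 1 of the 15.5% of all probe sets whose difference was at least 0.5 in size as deposited, and the only one of the 10 genes there. Of all probe sets, 7.98% had a lower difference than TRX3, a rank that centring cannot change.

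TRX1 had log2 signals of 12.92, 12.83 and 12.94 on the Med3-GST arrays, against 13.03, 12.90 and 12.99 on the GST arrays. The groups overlapped, and the difference of -0.07 did not pass the test (SE 0.05, adjusted p = 0.178, limma). After centring it was 0.02 and again did not pass (adjusted p = 0.345, limma), although the centred groups did not overlap. The sign of the TRX1 difference thus followed the scaling.

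TRX2, whose induction by oxidants depends on Yap1, had log2 signals of 13.29, 13.20 and 13.26 on the Med3-GST arrays. On the GST arrays it had 13.40, 13.34 and 13.41. The arrays of the groups lay 0.04 apart at the nearest, and the difference of -0.13 passed the test (SE 0.05, adjusted p = 0.0153, limma). It was -0.03 after centring, where the groups overlapped and the test was not passed (adjusted p = 0.230, limma). Without GST replicate C it did not pass as deposited either (adjusted p = 0.0933, limma).

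TRR1, which encodes the cytosolic thioredoxin reductase, was the only gene of the 10 with a positive difference as deposited. Its log2 signals were 12.88, 12.79 and 12.86 on the Med3-GST arrays, against 12.87, 12.73 and 12.80 on the GST arrays. These overlapped, and the difference of 0.04 did not pass the test (SE 0.05, adjusted p = 0.417, limma). After centring, TRR1 was higher by 0.14 (SE 0.02, adjusted p = 1.03e-04, limma), which is 10.2%, and the groups no longer overlapped. Of all probe sets, 66.1% had a lower difference than TRR1.

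Both glutaredoxin genes fell, GRX1 by 0.34 and GRX2 by 0.20 as deposited. They encode small dithiol enzymes that use glutathione to reduce disulfides. GRX1 had log2 signals of 12.64, 12.51 and 12.68 on the Med3-GST arrays, against 12.98, 12.91 and 12.97 on the GST arrays. The gap between the nearest arrays was 0.24, and the difference was -0.34 as deposited (SE 0.05, adjusted p = 2.16e-11, limma) and -0.25 after centring (SE 0.02, adjusted p = 4.91e-07, limma). This is a signal 21.2% lower as deposited and 15.8% lower after centring. GRX2 had 12.29, 12.14 and 12.27 on the Med3-GST arrays, against 12.45, 12.38 and 12.46 on the GST arrays. Again no arrays overlapped, and the difference was -0.20 as deposited (adjusted p = 1.63e-04, limma) and -0.10 after centring (adjusted p = 0.00202, limma).

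GLR1, whose product returns oxidized glutathione to its reduced form, also fell. Its log2 signals were 11.76, 11.64 and 11.77 on the Med3-GST arrays, against 12.00, 11.91 and 11.99 on the GST arrays. The groups did not overlap, with a gap of 0.14. The difference was -0.25 as deposited (SE 0.05, adjusted p = 1.94e-06, limma) and -0.15 after centring (SE 0.02, adjusted p = 3.62e-05, limma). This is a signal 15.7% lower as deposited and 9.91% lower after centring.

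Of the genes of glutathione synthesis, GSH2 was lower on both scalings and GSH1 on neither. GSH1 encodes gamma-glutamylcysteine synthetase, the first and rate-limiting enzyme, and GSH2 encodes glutathione synthetase, which adds glycine. GSH1 had log2 signals of 10.49, 10.44 and 10.56 on the Med3-GST arrays, against 10.56, 10.49 and 10.53 on the GST arrays. The groups overlapped, and the difference of -0.03 did not pass the test (SE 0.05, adjusted p = 0.626, limma). After centring the sign turned, and GSH1 was higher by 0.07 (SE 0.02, adjusted p = 0.0134, limma). GSH2 had 10.47, 10.38 and 10.50 on the Med3-GST arrays, against 10.73, 10.59 and 10.66 on the GST arrays, with no overlap. Its difference was -0.21 as deposited (adjusted p = 5.51e-05, limma) and -0.11 after centring (adjusted p = 2.84e-04, limma).

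YAP1 showed the second largest change after TRX3. It had log2 signals of 10.45, 10.33 and 10.51 on the Med3-GST arrays, against 10.86, 10.76 and 10.80 on the GST arrays. All Med3-GST arrays lay below all GST arrays, by at least 0.25. The difference was -0.38 (SE 0.05, adjusted p = 1.94e-13, limma), a signal 23.0% lower, and -0.28 after centring (SE 0.02, adjusted p = 1.07e-07, limma), or 17.7% lower. Of all probe sets, 17.2% had a lower difference. Of the genes named above as controlled by Yap1, GLR1 was lower on both scalings, TRX2 only as deposited, and TRR1 and GSH1 on neither. The arrays measure transcripts, so they give no reading of where the Yap1 protein was or whether it was oxidized.

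**Figure D2:**
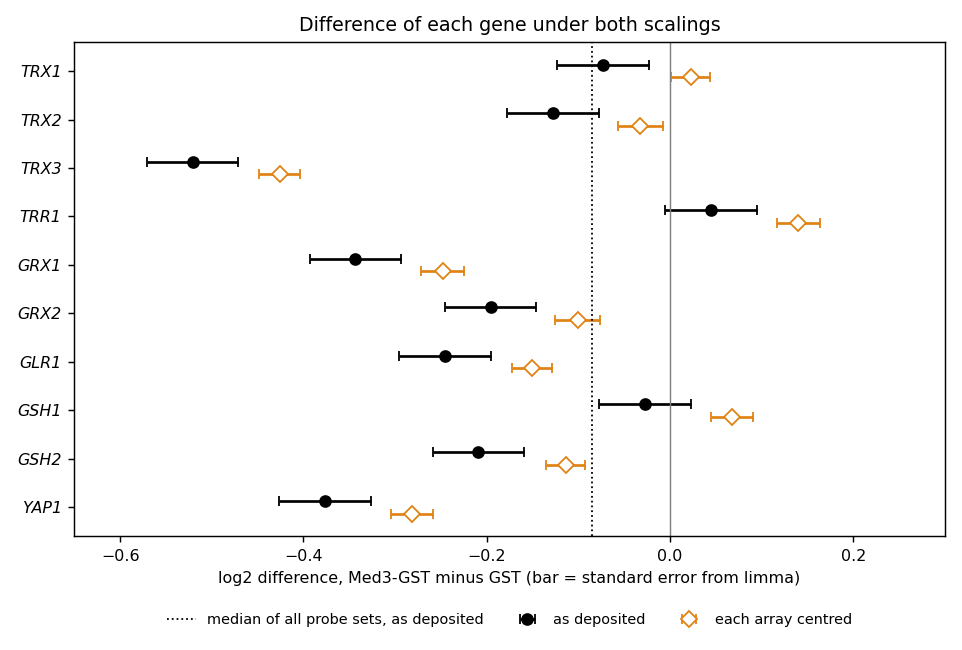
Log2 difference, Med3-GST minus GST, of each gene (horizontal axis) with its standard error from limma, as deposited (black) and after centring (orange diamonds). Centring moved every gene to the right by the same amount, which carried TRX1 and GSH1 across 0 and left TRX3, GRX1, GRX2, GLR1, GSH2 and YAP1 below 0. The dotted line marks the median of all probe sets, -0.085.

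Counted by overlap instead of by the fit, 7 genes had all Med3-GST arrays below all GST arrays as deposited, none had all of them above, and 3 overlapped. Among all probe sets 48.4% lay wholly below and 26.6% wholly above. After centring, 6 of the 10 lay below, 3 above (TRX1, TRR1 and GSH1) and 1 overlapped, against 42.2% below and 43.2% above among all probe sets. Replicate B was the lowest array of its group for all 10 genes in both groups, as it was for the median of all probe sets. The SD of a gene within a group was 0.033 to 0.090 as deposited and at most 0.031 after centring (n = 3).

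Since an offset of a whole array cancels in the ratio of 2 probe sets on it, pairs of the genes were also compared by the log2 ratio of their signals within each array. A ratio on its own says nothing of relative abundance, because probe sets differ in brightness, but its change between the groups shows unequal change. The ratio of TRR1 to GLR1 was 1.12, 1.16 and 1.09 on the Med3-GST arrays, against 0.87, 0.81 and 0.81 on the GST arrays, so that TRR1 gained 0.29 on GLR1. The ratio of TRX3 to TRX2 was -1.65, -1.70 and -1.62 on the Med3-GST arrays, against -1.23, -1.29 and -1.27 on the GST arrays, a change of -0.39. Neither pair overlapped between the groups. The ratio of GSH1 to GSH2 was 0.02, 0.06 and 0.07 on the Med3-GST arrays, against -0.17, -0.10 and -0.13 on the GST arrays, a change of 0.18. The ratio of GRX2 to GRX1 was -0.35, -0.37 and -0.40 on the Med3-GST arrays, against -0.53, -0.53 and -0.51 on the GST arrays, a change of 0.15. These pairs did not overlap either. Most single probe sets did not overlap after centring, with 42.2% wholly below and 43.2% wholly above, and the share among all pairs was not computed. The ratio of TRX2 to TRX1 averaged 0.35 ± 0.03 in cells with Med3-GST and 0.41 ± 0.04 in cells with GST (SD, n = 3 each), and its groups overlapped. With 3 arrays in each group, the smallest p of an exact two-sided permutation test is 0.1, and the test gave p = 0.1 for the first 4 pairs and p = 0.2 for TRX2 to TRX1 (adjusted over the 5 pairs, 0.125 and 0.2). The test could therefore not call any of these changes.

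**Figure D3:**
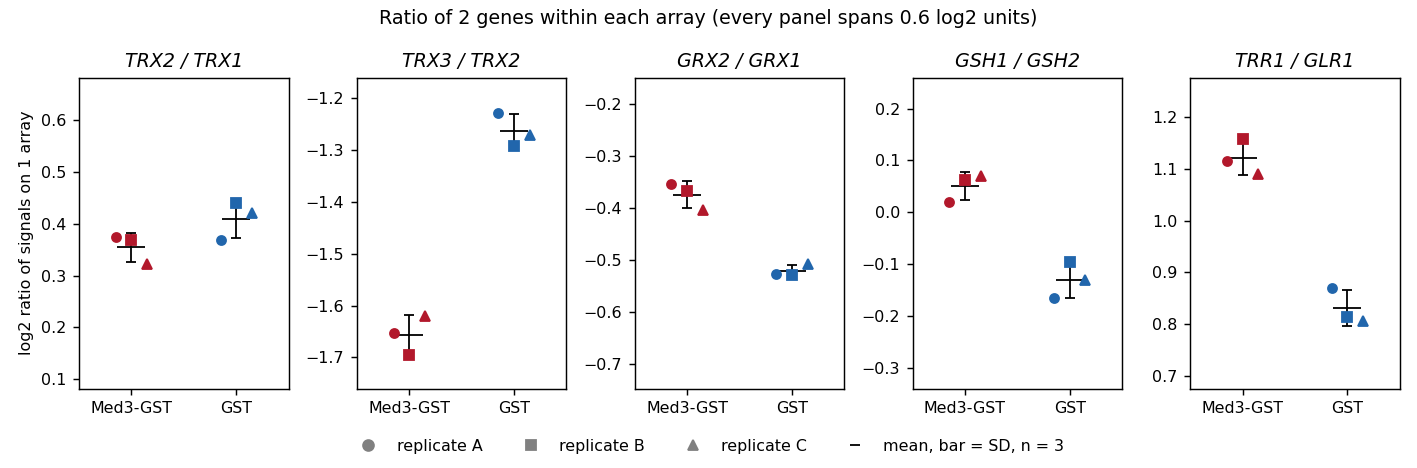
Log2 ratio of 2 genes on the same array (vertical axis, 0.6 log2 units in every panel) for the 3 Med3-GST arrays (left, red) and the 3 GST arrays (right, blue), with marker shape for the replicate and black bars for mean ± SD. The groups are apart in every panel but that of TRX2 to TRX1, and TRX3 to TRX2 shows the largest change, -0.39.

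Genes of the surrounding pathways were counted in 8 lists, some of which share genes. The counts stand beside shares of all probe sets of 47.8% lower and 27.1% higher as deposited. After centring these shares were 41.7% lower and 43.6% higher. Differences of single genes in the lists are as deposited unless stated, and centring moves every one up by the same amount. The other glutaredoxins and the mitochondrial reductase were split. Of the 7 genes, 3 rose and 3 fell as deposited, and GRX4, with -0.01, did not pass the test. After centring, 4 were higher and 3 lower. GRX7, a glutaredoxin of the secretory pathway, had a difference of -0.40 and its paralog GRX6 of 0.26. TRR2, the thioredoxin reductase of mitochondria, had log2 signals of 10.61, 10.54 and 10.64 on the Med3-GST arrays, against 11.02, 10.86 and 11.00 on the GST arrays. It fell by 0.36, in the same direction as TRX3, while GRX8 rose by 0.24.

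Among 15 enzymes that draw electrons from thioredoxin or glutathione, 8 fell and 4 rose as deposited. Their median difference was -0.12 beside -0.085 for all probe sets. The glutathione peroxidase gene GPX1 had log2 signals of 10.28, 10.22 and 10.33 on the Med3-GST arrays, against 11.40, 11.23 and 11.32 on the GST arrays. It fell by 1.04. The related gene GPX2 had 10.48, 10.35 and 10.46 on the Med3-GST arrays, against 9.87, 9.86 and 9.76 on the GST arrays, and rose by 0.60. The mitochondrial peroxiredoxin gene PRX1 fell by 0.62 and MXR2, a methionine sulfoxide reductase gene of mitochondria, by 0.52. After centring, 6 were lower and 7 higher, and the median was -0.02 beside 0.01 for all probe sets. The shares of all probe sets were 47.8% lower and 27.1% higher as deposited, and 41.7% lower and 43.6% higher after centring.

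Of 18 genes of glutathione use, transport and breakdown, 11 fell and 3 rose as deposited, and 10 fell and 6 rose after centring. Among all probe sets 47.8% fell and 27.1% rose as deposited, and 41.7% fell and 43.6% rose after centring. The median difference of the list was -0.22 as deposited, beside -0.085 for all probe sets. GLO2 and GLO1, whose products remove methylglyoxal with glutathione, fell by 0.66 and 0.48. BPT1, which encodes a vacuolar transporter of glutathione conjugates, fell by 0.54. The plasma membrane glutathione transporter gene OPT1 had 7.51, 7.48 and 7.58 on the Med3-GST arrays, against 6.42, 6.26 and 6.27 on the GST arrays, and rose by 1.21. Its GST arrays were below the level of 7.50 that bounds 95% of S. pombe probe sets. Its Med3-GST arrays lay close to that level, with replicate B below it. The size of the OPT1 change is therefore limited by background. With the background subtracted before centring it came to 2.89, a value that depends on the level subtracted and on the floor of 16 units set for what remained. Of the genes counted as fallen as deposited, GTO3 lay below 7.50 on all 6 arrays and GEX1 on the Med3-GST arrays. GTO3 did not pass the test after centring (adjusted p = 0.661, limma).

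Other targets of Yap1 did not move one way. Of 24 genes, 6 rose and 8 fell as deposited, with 10 not past the test, and 11 rose and 8 fell after centring. Over all probe sets 27.1% rose and 47.8% fell as deposited, and 43.6% rose and 41.7% fell after centring. The median was -0.05 as deposited, beside -0.085 for all probe sets. GRE2, a reductase gene that also belongs to the osmotic response, fell by 1.31, while AHP1, a thioredoxin peroxidase gene, rose by 0.36. GPX2 and PRX1, already given, are in this list too and moved in opposite directions. CTA1 and FRM2 lay below 7.50 on all 6 arrays, and FRM2 is counted as risen after centring.

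Of 7 genes whose products act on Yap1 or with it, 3 rose and 2 fell as deposited, and 5 rose and 2 fell after centring. By the same rule 27.1% of all probe sets rose and 47.8% fell as deposited, and 43.6% rose and 41.7% fell after centring. SKN7, which encodes a response regulator that binds with Yap1 to oxidant-induced promoters, had log2 signals of 10.18, 10.14 and 10.22 on the Med3-GST arrays. On the GST arrays it had 9.65, 9.50 and 9.62, and the rise was 0.59. YBP1, whose product binds Yap1 and helps its oxidation by peroxide, had 9.12, 9.00 and 9.12 on the Med3-GST arrays, against 9.53, 9.46 and 9.47 on the GST arrays, and fell by 0.41. HYR1, also called GPX3, which passes the oxidation on to Yap1, fell by 0.17, and CRM1, the exportin that carries Yap1 out of the nucleus, rose by 0.17. After centring the differences of HYR1 and CRM1 were -0.08 and 0.26. The difference of SKN7 was thus opposite in sign to those of YAP1 and YBP1. Of 7 other AP-1 like factors, 3 rose and 3 fell on both scalings, among them YAP5 with 0.37, YAP6 with 0.24, YAP3 with -0.37 and CAD1 with -0.26.

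All 14 measured genes of NADPH supply passed the test, 7 in each direction, on both scalings. Most probe sets passed it too, with 27.1% higher and 47.8% lower as deposited and 43.6% higher and 41.7% lower after centring. GND2, a minor form of 6-phosphogluconate dehydrogenase, had log2 signals of 9.19, 9.07 and 9.18 on the Med3-GST arrays, against 10.29, 10.21 and 10.32 on the GST arrays, and fell by 1.13. SOL4 of the same pathway fell by 0.71, and IDP2, which makes NADPH in the cytosol, fell by 0.62. RPE1, which acts later in the pentose phosphate pathway and makes no NADPH itself, rose by 1.07. Of the 4 listed genes of cysteine supply, CYS3, which makes cysteine from cystathionine, rose by 0.99 and CYS4 by 0.23, while STR2 and STR3, which work in the opposite direction toward homocysteine, fell by 0.32 and 0.25. Cysteine is a substrate of the enzyme encoded by GSH1. As deposited, the median difference was 0.10 for the genes that act on Yap1 or with it, -0.08 for the AP-1 like factors, 0.0012 for NADPH supply and -0.0095 for cysteine supply, beside -0.085 for all probe sets. After centring these medians were 0.19, 0.01, 0.10 and 0.09, in the same order, beside 0.01.

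**Figure D4:**
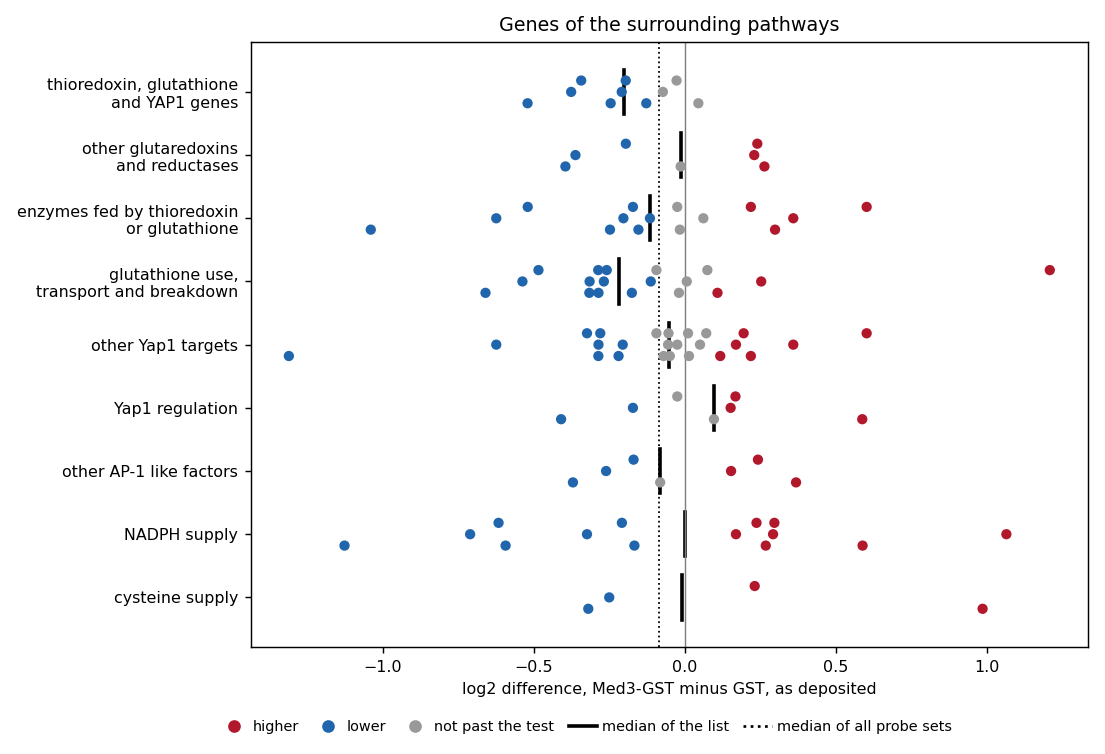
Log2 difference as deposited, Med3-GST minus GST (horizontal axis), of each gene in the 10-gene set (top) and in the 8 lists below it, with red for genes higher past the test, blue for lower and grey for not past it. Black bars mark the median of each list and the dotted line that of all probe sets. The 10 genes lie within -0.52 to 0.04 as deposited, and each list below also reaches to both sides of 0. After centring, which is not drawn here, the 10 genes run from -0.43 to 0.14.

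The genes whose profile over the 6 arrays was closest to that of TRX3 were MSN4, VPS16 and AVT7, by the root mean square distance of log2 signals after each profile was centred on its mean. Their distances were 0.0081, 0.0127 and 0.0138. MSN4 encodes a factor of the general stress response, and its difference was -0.51. VPS16, a gene of vacuolar protein sorting, had -0.52 and AVT7, a gene for a vacuolar amino acid transporter, had -0.51. The 6 arrays share their offsets and 1 contrast, and closeness here largely restates a difference of similar size.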

How the data were processed

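RNA from 3 cultures overexpressing Med3-GST and 3 overexpressing GST was hybridized to 1 Affymetrix Yeast Genome 2.0 Array each. The authors deposited 1 log10 signal per probe set and array. Base 10 follows from the numbers themselves, as 10 to the power of a deposited value had at most 2 decimals in 100% of cells. The study's methods name normalization within each experiment and do not say whether the deposited values carry it. The fold increases that the study lists for PGD1, OPT1, CYS3 and RPE1 are larger than the ratios from the values as deposited. The reason was not tested. Background correction and probe summary: not given in the sources used here. Log10 values were converted to log2 without further scaling. Probe sets were assigned by gene identifier to assembly R64, which left 5498 for S. cerevisiae of 10928. S. pombe probe sets of the same gene names were not used. All 10 genes had 1 probe set.

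Groups follow the overexpression label. The fit was made with lmFit and eBayes of limma 3.58.1 in R 4.3.3, over all 5498 probe sets. As deposited, the array offsets led limma to an infinite prior weight, so that each probe set had the same standard error of 0.05. After centring, the median standard error was 0.024. How small the lowest adjusted p-values are rests on this common spread. Precision is limited by the number of arrays.

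The genes and lists were chosen with earlier results of these data known. Lists were written from textbook knowledge, with no set test. Named were the 10 genes, PGD1, the a-cell and alpha-cell genes, in each list up to 4 genes past the test with the largest difference, and the 3 profiles nearest to the largest change. GRX4 and the mitochondrial genes GRX5, SOD2, CCP1, IDP1 and POS5 fall outside this rule and were chosen after their values were seen. AAD16 and GEX2 could not be matched to a probe set and were left out. Alternatives were centring, quantile normalization, background subtraction with centring (the median S. pombe signal removed, with a floor of 16 units), an intensity trend, robust eBayes, array weights, a filter on dim probe sets, the replicate letter as a block, and leaving out each array. A second probe set, promoter motifs and protein identity were planned but not analysed here.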

Additional observations from a re-analysis of the deposited data

How the results depend on the processing

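TRX3, YAP1, GRX1, GLR1, GSH2 and GRX2 were lower past the test under all 15 alternatives. Not all of these could move a difference. The intensity trend, robust eBayes, the filter and the replicate block left each difference as deposited and changed only its standard error. The block with centring likewise repeated the centred difference. The count of lower genes, 7 as deposited, was 6 to 9. Among all 5498 probe sets, 47.8% were lower and 27.1% higher as deposited. After background subtraction with centring, 2322 of these probe sets were lower and 2406 higher. With array weights, where 9 genes were lower, their standard error was 0.012, against 0.05 as deposited. Shares under alternatives beyond centring and background subtraction are not given here, so those counts do not set the genes apart. The count of higher genes, 0 as deposited, was 2 after centring, after quantile normalization, after background subtraction with centring and with the replicate block and centring, and 1 with array weights, whose estimation stopped before convergence. TRR1 was higher past the test in those 5 and in no other. The difference of TRX1 turned to 0.0225 after centring, with or without the replicate block, and to 0.0283 after background subtraction with centring, not past the test. That of GSH1 turned to 0.0678 after centring, with or without the block, to 0.0888 after quantile normalization and to 0.0730 after background subtraction with centring, each past the test. Without single arrays the difference of GSH1 ran from -0.0595 to 0.00175, the upper value without Med3-GST replicate B, and was never past the test. With array weights GSH1 was lower past the test, with a difference of -0.0301 (adjusted p = 0.0113, limma), as was TRX1, with -0.0659 (adjusted p = 2.49e-08, limma). TRX2 lost its call after centring, with and without the block, after background subtraction with centring and without GST replicate C. As deposited, the replicate block gave 8 lower genes, TRX1 being added (adjusted p = 0.0352, limma). Deviations of same-lettered arrays from their group means correlated at 0.029 to 0.062 over probe sets, too little to treat the letters as pairs. This measure does not see an offset of a whole array, and replicate B had the lowest median of its group in both groups. The changes of the 5 within-array ratios kept their sign under all alternatives run.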

Other observations

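Some genes of the lists that act in mitochondria were set side by side after their values had been seen. The choice was not made to cover every such gene. Beside TRX3, the thioredoxin reductase gene TRR2, the peroxiredoxin gene PRX1 and the methionine sulfoxide reductase gene MXR2 were lower, with log2 differences of -0.36, -0.62 and -0.52 as deposited and -0.27, -0.53 and -0.43 after centring. GRX5, a glutaredoxin of iron-sulfur cluster assembly, had -0.20. The superoxide dismutase gene SOD2, with 0.05, and the cytochrome c peroxidase gene CCP1, with 0.07, did not pass the test as deposited, whereas both were higher after centring, by 0.15 and 0.17. IDP1 and POS5, which supply NADPH within mitochondria, rose by 0.29 and 0.59. Of the genes named here, TRX3, TRR2, PRX1, MXR2 and GRX5 were lower on both scalings, and SOD2, CCP1, IDP1 and POS5 were not. Of all probe sets, 47.8% were lower as deposited and 41.7% after centring, so the grouping is only a description of chosen genes. No test was run on this grouping.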
